A study of Mus musculus with 15 samples.

Results

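The ATF4 response and the aminoacyl-tRNA synthetases were followed as a set of 36 listed genes: 24 genes known as regulators, targets or partners of the transcription factor ATF4, and 12 cytosolic synthetases. For each member the brightest probe set was used, on average over the 15 arrays, out of those annotated to that gene alone. This gave values for 35 of 36 members, out of 18193 genes on the array, and all 35 passed the filter on low values (on 3 or more arrays a value above the 40th percentile of that array). Pycr1, an enzyme of proline synthesis, was not analysed here. Every cell came from mouse bone marrow cultured with M-CSF, the growth factor of macrophages, over 7 days. M1 cells were polarized with E. coli LPS and interferon-gamma. M2 cells were polarized with IL-4 and IL-13, and a set of these M2 cultures also received nutlin-3a, an inhibitor of MDM2 that releases p53, while another received 10058F4, an inhibitor of MYC. M0 cells had no treatment. Each group had 3 arrays, described as biological replicates. The labels do not say that the replicates are separate animals or cultures, so the p-values cover only the spread among these arrays, part of which may be technical. The labels give no dose, duration or vehicle for the agents, and the M2 cells without an agent are the control used for both.

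ATF4 is the main effector of the integrated stress response. When amino acids run short, proteins misfold in the endoplasmic reticulum or mitochondria fail, kinases phosphorylate the translation factor eIF2, most protein synthesis slows and the Atf4 messenger is translated more. ATF4 then pairs with other bZIP proteins and drives genes for amino acid synthesis, amino acid import and tRNA charging, together with genes that end the response or lead to cell death. Macrophages exposed to LPS are known to turn on serine and folate pathway enzymes that overlap with this program. The arrays measured messenger levels, so translation and ATF4 protein were not observed.

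Values are log2 expression, so a difference of 1 is a 2-fold change. Levels are given with the SD over 3 arrays, differences with the standard error (SE) of the limma fit, and a gene was called when its Benjamini-Hochberg adjusted p over the 13703 genes tested was under 0.05. Across probe sets, r between arrays of a group was 0.989 to 0.997, lowest in M1. The macrophage markers measured, 9 of 9, were above the 40th percentile on all 15 arrays, with array means of 11.40 to 12.02. The 5 mast cell and basophil markers were above it on none. Markers above it on all 15 arrays were also 4 of 6 for dendritic cells and 3 of 5 for T and NK cells. For neutrophils they were 3 of 7, for stromal cells 3 of 7 and for B cells 1 of 5. The array means of these lists were at most 5.63. RNA integrity was read from beta-actin, as its 3' control probe set minus its 5' one, which gave 0.178 ± 0.0444 in M1, 0.453 ± 0.0346 with nutlin-3a, 0.489 ± 0.025 with 10058F4, 0.382 ± 0.0302 in M2 and 0.351 ± 0.0543 in M0 (SD, n = 3 each). For Gapdh the same reading was -0.162 ± 0.0347 in M1, while the means of the other groups lay between -0.283 and -0.272. The part of either in the results was not tested. In a bulk sample, fewer cells of a type and less RNA per cell cannot be told apart.

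ATF4 binds DNA at a composite site, the C/EBP-ATF response element, whose core is TGATGNAA. This word was looked for on both strands in the RefSeq promoter windows of GRCm38.p6, from 250 bases before to 50 bases after each gene's start, which covered 29 of the 35 members. Eif4ebp1, Slc7a5, Cars, Lars, Nars and Wars were not among them. The word stood in the windows of 12 of 29 members (41.4%), against 1219 of 27025 genes of the whole table (4.51%). By class it was in 7 of 21 ATF4 response genes (Atf3, Trib3, Nupr1, Chac1, Vldlr, Asns and Slc7a11) and in 5 of 8 synthetases (Aars, Gars, Iars, Tars and Yars). It was in 0 of 14 windows of mitochondrial synthetases and in 0 of 7 of the other cytosolic synthetases and their partners. So few windows cannot set these counts apart from the 4.51% of all genes. The stricter word TGATGCAA was in 9 of 29 members (31%) and 1.03% of all genes. A match describes letters in a window and is not a shown site of binding. Many members were listed as known ATF4 targets, so their higher share is not a result of these arrays. Members whose level changed the same way with both agents and that have the word before the start are printed first, from the gene's own strand, with the word or its reverse complement in capitals. They are Chac1 (chr2:119351028-119351077, plus strand), Asns (chr6:7693210-7693253, minus strand) and Atf3 (chr1:191183415-191183464, minus strand).
Chac1: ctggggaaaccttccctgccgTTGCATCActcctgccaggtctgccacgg
Asns: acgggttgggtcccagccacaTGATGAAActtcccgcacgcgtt
Atf3: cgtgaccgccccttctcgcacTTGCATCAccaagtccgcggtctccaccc
A further 3 were chosen after their values were seen, because the agents differed in Slc7a11 (chr3:50443651-50443700, minus strand), because Aars (chr8:111033709-111033758, plus strand) was a synthetase higher in M1 cells and with nutlin-3a, and because Nupr1 (chr7:126625552-126625601, minus strand) led the differences in M1 cells. The Slc7a11 window holds the word on both strands within a few bases.
Slc7a11: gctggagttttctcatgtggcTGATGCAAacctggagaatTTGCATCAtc
Aars: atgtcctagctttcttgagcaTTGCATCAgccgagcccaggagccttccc
Nupr1: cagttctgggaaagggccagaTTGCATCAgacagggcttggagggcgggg

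M2 cells given nutlin-3a were compared with M2 cells for how the program differed with this agent. Release of p53 was not measured. Of the 35 members, 19 were called higher, against 9.56% of all genes tested, and 1 was called lower, against 5.85% (15.4% of all genes were called either way). The members' median log2 difference was 0.34, and that of all genes 0.009. The higher members came from every class: 4 of 7 transcription factors and regulators, 3 of 5 feedback genes and other targets, 3 of 7 enzymes, 1 of 4 transporters and 8 of 12 synthetases. For 27 of the 35 members no array of one group lay within the range of the other, which held for 38.9% of all genes.

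Among the transcription factors, Atf4 itself was measured at 11.01, 11.03 and 10.99 with nutlin-3a, against 10.15, 10.23 and 10.29 in M2 cells. All 3 nutlin-3a arrays lay above all M2 arrays, a 1.72-fold rise (0.79, SE 0.11, adjusted p = 0.0003). Atf5, a relative of Atf4 that is translated under the same control, was measured at 9.66, 9.86 and 10.10 with nutlin-3a and at 8.47, 8.66 and 8.86 in M2 cells. Its groups stood apart by more than either one's spread, a 2.32-fold rise (1.21, SE 0.12, adjusted p = 2.1e-05). Trib3, a pseudokinase that ATF4 and CHOP induce and that restrains them, was at 7.11, 7.38 and 6.99 with nutlin-3a, against 5.72, 5.82 and 6.48 in M2 cells. The M2 arrays were more scattered here, replicate 3 being the highest, and the groups still did not overlap (1.16, SE 0.16, adjusted p = 0.00035). Ddit3, which encodes the death-promoting factor CHOP, rose by 0.63 (SE 0.09, adjusted p = 0.00049). The dimer partner Cebpg (0.05, SE 0.08) and the stress-induced chromatin protein Nupr1 (0.28, SE 0.20) were not called.

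Atf3, a repressor of inflammatory genes that belongs to the same family, was the 1 member called lower, at 11.78 ± 0.18 with nutlin-3a and 12.19 ± 0.12 in M2 cells (SD, n = 3 each; -0.41, SE 0.13, adjusted p = 0.043). That call was not firm. It was lost without any 1 of M2 replicates 1, 2 and 3 or nutlin-3a replicates 1 and 2, where its adjusted p lay between 0.063 and 0.18.

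Of the feedback genes, Chac1, which degrades glutathione, was at 6.30, 6.56 and 6.09 with nutlin-3a and at 5.21, 4.96 and 5.56 in M2 cells. The lowest nutlin-3a array lay above the highest M2 array (1.07, SE 0.14, adjusted p = 0.00024). Ppp1r15a, the GADD34 subunit that brings a phosphatase to eIF2 and ends the response, rose by 0.55 (SE 0.10, adjusted p = 0.0023). Eif4ebp1, a translation repressor that ATF4 induces, rose by 0.53 (SE 0.08, adjusted p = 0.00038). The secreted glycoprotein Stc2 (-0.06, SE 0.10) and the lipoprotein receptor Vldlr (0.19, SE 0.10) were not called.

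The enzymes divided. Mthfd2, the mitochondrial folate enzyme, was at 8.38, 8.46 and 8.31 with nutlin-3a, against 7.08, 6.95 and 7.08 in M2 cells, which made it the member with the largest difference (2.54-fold; 1.34, SE 0.14, adjusted p = 2.1e-05). Asns, which makes asparagine, was at 7.59, 8.06 and 7.87 with nutlin-3a, against 6.45, 6.66 and 6.56 in M2 cells (2.43-fold; 1.28, SE 0.21, adjusted p = 0.001). Both genes showed complete separation of the groups. In the serine pathway, Psat1 (0.05, SE 0.25), Phgdh (-0.10, SE 0.10), Psph (0.23, SE 0.10) and Shmt2 (0.04, SE 0.13) were not called. These missing calls do not show that the genes were unchanged. The confidence interval of Psat1 ran from -0.48 to 0.58. Psph was called under 2 of 18 alternative settings, over which its difference lay between 0.17 and 0.35. For Phgdh, 2 dimmer probe sets read 0.86 and 0.58 with nutlin-3a, and the mean of its probe sets was called higher (0.38, adjusted p = 0.013). Aldh18a1, which starts proline synthesis from glutamate, rose by 0.43 (SE 0.10, adjusted p = 0.008) on its brightest probe set. Its other probe sets read -0.26 to 0.19, and the brightest of those specific by suffix read -0.08 (adjusted p = 0.75).

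Of the transporters, Slc38a2, the SNAT2 carrier of small neutral amino acids, was at 10.24, 10.25 and 10.11 with nutlin-3a, against 9.27, 9.49 and 9.14 in M2 cells. The groups were well apart (0.90, SE 0.10, adjusted p = 5.5e-05). A second probe set of the gene read 0.58, and a further, dim one read -0.28 and was called the other way. Slc7a11, the cystine carrier, was at 6.54 ± 0.29 with nutlin-3a and 5.90 ± 0.08 in M2 cells and was not called (0.65, SE 0.22, adjusted p = 0.061), but was in the fit that takes replicate number as a block (adjusted p = 0.04). The light chain Slc7a5 of the large neutral amino acid carrier (0.23, SE 0.10) and its heavy chain Slc3a2 (0.14, SE 0.06) were not called.

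The synthetases called higher with nutlin-3a were those for methionine (Mars, 0.58, SE 0.09), alanine (Aars, 0.57, SE 0.09), cysteine (Cars, 0.51, SE 0.07), glutamate with proline (Eprs, 0.45, SE 0.10), glycine (Gars, 0.40, SE 0.07), isoleucine (Iars, 0.34, SE 0.09), threonine (Tars, 0.30, SE 0.07) and serine (Sars, 0.22, SE 0.06). Adjusted p-values ran from 0.00036 for Cars to 0.033 for Sars. The differences of the 12 lay between -0.03 and 0.58, with a median of 0.32. Sars was not called without any 1 of the 6 arrays of these groups (adjusted p 0.056 to 0.11), nor Iars without M2 replicates 1 or 3 or nutlin-3a replicates 1 or 2 (0.078 to 0.095). Iars was also not called on probe sets specific by their name suffix (0.25, adjusted p = 0.14) or on the mean of its probe sets (0.29, adjusted p = 0.051). The synthetases for tryptophan (Wars, -0.03, SE 0.07), leucine (Lars, 0.11, SE 0.09), asparagine (Nars, 0.30, SE 0.13) and tyrosine (Yars, 0.20, SE 0.07) were not called. A second probe set of Nars read 0.36 with an adjusted p of 0.0043.

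**Figure D1:**
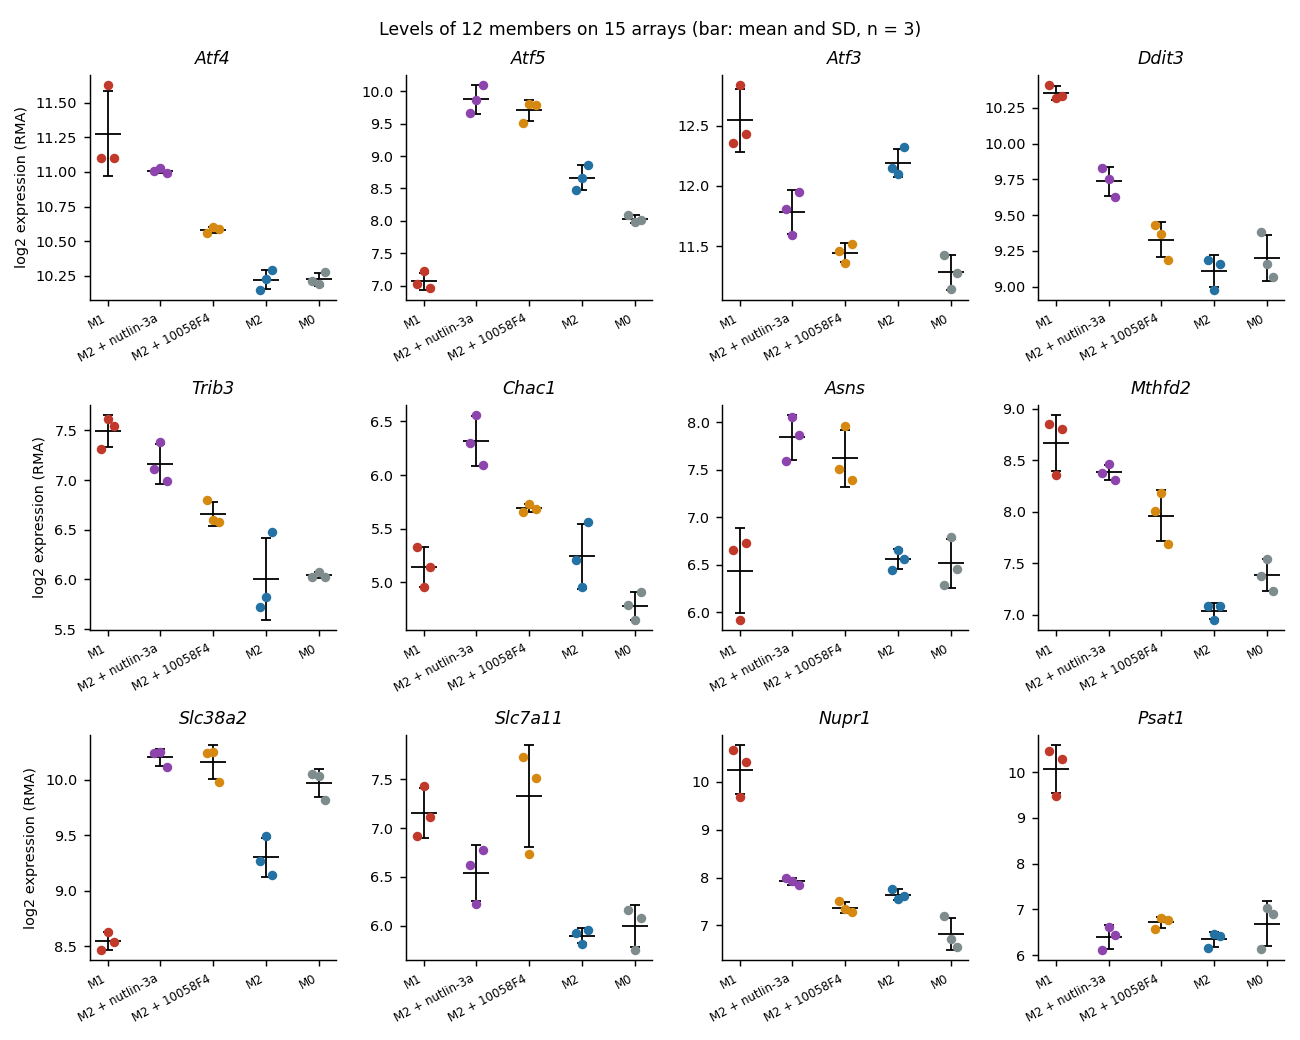
Log2 expression of 12 members (vertical axis, a scale for each panel) on each of the 15 arrays, with groups along the horizontal axis; points are arrays, and bars give the mean and SD over 3 arrays. Atf4, Atf5, Asns, Mthfd2 and Slc38a2 lie higher with both agents than in M2 cells, Atf3 lies lower, and Nupr1 and Psat1 are highest in M1 cells.

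M2 cells given 10058F4 were compared with the same M2 arrays for how the program differed with this agent. Inhibition of MYC was not measured. Of the 35 members, 13 were called higher, against 10.6% of all genes, and 1 was called lower, against 10.2% (20.9% of all genes either way). The members' median difference was 0.20, and that of all genes was 0. The higher members were 3 of 7 transcription factors and regulators, 3 of 5 feedback genes, 2 of 7 enzymes, 2 of 4 transporters and 3 of 12 synthetases. Arrays did not overlap for 26 members, which held for 44.2% of all genes.

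Slc7a11, the cystine carrier, differed most and was at 7.73, 6.74 and 7.52 with 10058F4, against 5.92, 5.81 and 5.96 in M2 cells. Replicate 2 was the lowest with 10058F4 and yet above all M2 arrays, and the fold was 2.70 (1.44, SE 0.22, adjusted p = 0.00031). Slc38a2 was at 10.24, 10.25 and 9.98 with 10058F4 and at 9.27, 9.49 and 9.14 in M2 cells. All 10058F4 arrays were the higher ones (0.86, SE 0.10, adjusted p = 4e-05), while its dim probe set read -0.24. Slc3a2 was 10.91 ± 0.02 with 10058F4 and 11.08 ± 0.02 in M2 cells, a small difference that was called under the replicate block (adjusted p = 0.04) and not otherwise (-0.17, SE 0.06, adjusted p = 0.053).

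Asns was at 7.51, 7.96 and 7.39 with 10058F4, against 6.45, 6.66 and 6.56 in M2 cells (1.06, SE 0.21, adjusted p = 0.0022). Mthfd2 was at 8.01, 8.18 and 7.69 with 10058F4 and at 7.08, 6.95 and 7.08 in M2 cells (0.93, SE 0.14, adjusted p = 0.00024). In both the groups were separate, as they were with nutlin-3a. The other enzymes were not called, with Aldh18a1 at 0.05 (SE 0.10) and Psat1 at 0.38 (SE 0.25).

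Atf5 was at 9.51, 9.81 and 9.79 with 10058F4, against 8.47, 8.66 and 8.86 in M2 cells, a 2.06-fold rise (1.04, SE 0.12, adjusted p = 3.7e-05). Atf3 was at 11.46, 11.36 and 11.52 with 10058F4, against 12.15, 12.10 and 12.32 in M2 cells. Every 10058F4 array lay below every M2 array, and the gene fell by 0.75 (SE 0.13, adjusted p = 0.00074). Trib3 rose by 0.65 (SE 0.16, adjusted p = 0.01), with an adjusted p of 0.057 without M2 replicate 1 and 0.05 without 10058F4 replicate 1. Atf4 was at 10.56, 10.60 and 10.59 with 10058F4, against 10.15, 10.23 and 10.29 in M2 cells. The arrays did not overlap and the difference was called (0.36, SE 0.11, adjusted p = 0.03), but the call was lost without any 1 of the 6 arrays (adjusted p 0.051 to 0.1). A second bright probe set of Atf4 read 0.80 (adjusted p = 5.9e-05). Ddit3 was not called (0.22, SE 0.09, adjusted p = 0.12) and was with the replicate block (adjusted p = 0.048).

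Among the feedback genes Ppp1r15a rose by 0.52 (SE 0.10), Chac1 by 0.45 (SE 0.14, adjusted p = 0.042) and Eif4ebp1 by 0.31 (SE 0.08). Chac1 was not called without M2 replicates 1 or 2 or any 1 of the 10058F4 replicates (adjusted p 0.087 to 0.18), and Eif4ebp1 was not called on the mean of its probe sets (0.16, adjusted p = 0.15) or on those specific by suffix (0.16, adjusted p = 0.25). The synthetases called higher were Mars (0.51, SE 0.09), Eprs (0.38, SE 0.10) and Cars (0.31, SE 0.07). Eprs had an adjusted p of 0.054 without 10058F4 replicate 1, and the mean of the Cars probe sets was not called (0.20, adjusted p = 0.13). The median of the 12 synthetases was 0.17, with Wars lowest at -0.18 (SE 0.07, not called).

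Set side by side, the comparisons with the agents share their M2 arrays, so their likeness is given without a measure. With both agents the called members were Atf4, Atf5, Trib3, Ppp1r15a, Chac1, Eif4ebp1, Asns, Mthfd2, Slc38a2, Cars, Eprs and Mars (12 higher) and Atf3 (1 lower). The 7 called with nutlin-3a and not with 10058F4 were Ddit3, Aldh18a1, Aars, Gars, Iars, Sars and Tars, and the 1 called with 10058F4 and not with nutlin-3a was Slc7a11. Whether the agents differ is answered by their direct comparison. There 8 members were called higher with nutlin-3a than with 10058F4, against 4.24% of all genes, and 1 was called lower, against 2.72% (6.96% of all genes either way). The median was 0.21, with 0.011 over all genes, and 30 of the 35 differences were above 0. The arrays of 20 members did not overlap, against 32% of all genes.

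Chac1 was at 6.30, 6.56 and 6.09 with nutlin-3a, against 5.66, 5.73 and 5.68 with 10058F4, so that the groups did not overlap (0.63, SE 0.14, adjusted p = 0.016). Atf4 was at 11.01, 11.03 and 10.99 with nutlin-3a, against 10.56, 10.60 and 10.59 with 10058F4, with little spread in either group (0.43, SE 0.11, adjusted p = 0.029). Ddit3 was at 9.83, 9.75 and 9.63 with nutlin-3a, against 9.43, 9.37 and 9.19 with 10058F4 (0.41, SE 0.09, adjusted p = 0.015). Every array with nutlin-3a was the higher one in these 3 genes. Aldh18a1 was at 6.34, 6.61 and 6.36 with nutlin-3a, against 6.10, 6.20 and 5.90 with 10058F4 (0.38, SE 0.10, adjusted p = 0.028), though the mean of its probe sets was not called (0.19, adjusted p = 0.4), nor its value on probe sets specific by suffix (0.17, adjusted p = 0.59). Psph, which releases serine from its phosphate, was at 6.77, 7.11 and 7.12 with nutlin-3a, against 6.64, 6.61 and 6.62 with 10058F4 (0.37, SE 0.10, adjusted p = 0.04). The differences of these genes were under 2-fold.

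Slc7a11 went the other way and was at 6.62, 6.22 and 6.78 with nutlin-3a, against 7.73, 6.74 and 7.52 with 10058F4 (-0.79, SE 0.22, adjusted p = 0.044). Its groups overlapped, since 10058F4 replicate 2 lay below nutlin-3a replicate 3. Slc3a2, the partner chain of Slc7a11 at the cell surface, was higher with nutlin-3a (0.32, SE 0.06, adjusted p = 0.0041), as were Yars (0.26, SE 0.07) and Gars (0.25, SE 0.07). Of these 9 calls, that of Slc3a2 held without each array in turn. The calls of Atf4 (adjusted p 0.075 to 0.1) and Gars (0.071 to 0.16) were lost without any 1 of the 6 arrays. Slc7a11 was lost without nutlin-3a replicates 1, 2 or 3 or 10058F4 replicates 1 or 3 (0.054 to 0.19), and Psph and Yars without nutlin-3a replicates 2 or 3 or any 10058F4 replicate (0.065 to 0.17). Chac1 and Aldh18a1 were lost without nutlin-3a replicate 2 or 10058F4 replicates 1 or 3 (0.058 to 0.14), and Ddit3 without nutlin-3a replicates 1 or 2 or 10058F4 replicate 3 (0.057 to 0.084). The count of higher calls was 1 without nutlin-3a replicate 2 or 10058F4 replicate 3 and at most 6 without any other array. With the replicate block Vldlr (0.35, adjusted p = 0.016) and Tars (0.21, adjusted p = 0.041) were also called. Vldlr was at or below the 40th percentile on 2 of the 3 arrays with 10058F4, so its difference is not an exact size. Asns (0.22, 95% interval -0.23 to 0.66), Mthfd2 (0.42, interval 0.13 to 0.71) and Slc38a2 (0.04, interval -0.18 to 0.26) were not called between the agents.

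**Figure D2:**
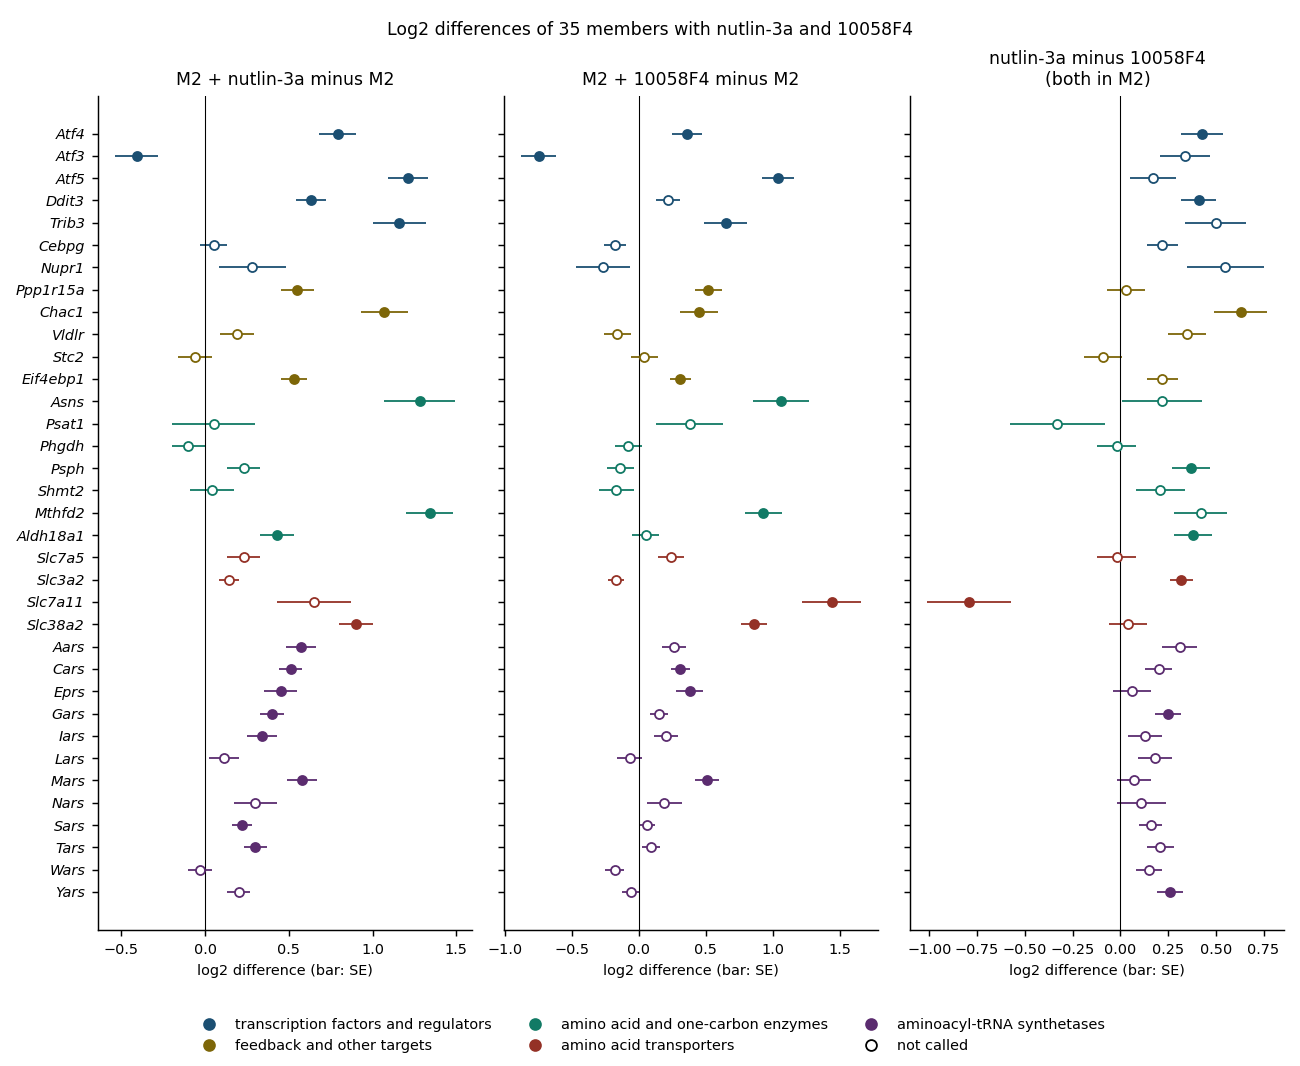
Log2 difference (horizontal axis, a scale for each panel; bars give the SE) of the 35 members, in the panels M2 with nutlin-3a minus M2, M2 with 10058F4 minus M2, and M2 with nutlin-3a minus M2 with 10058F4; filled points are called and open points are not. Most points lie right of 0 in the first panels, led by Mthfd2 at 1.34 with nutlin-3a and Slc7a11 at 1.44 with 10058F4, and Slc7a11 lies at -0.79 in the panel comparing the agents.

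M1 cells were compared with M0 cells for the response to LPS and interferon-gamma. Of the 35 members 19 were called higher, against 33.6% of all genes, and 11 lower, against 39.1%. Since 72.7% of all genes were called in this comparison, the 30 members called (85.7%) stand close to that background, and the directions differed by class. Of the 23 ATF4 response genes 15 were higher and 5 lower, with a median of 0.59, while of the 12 synthetases 4 were higher and 6 lower, with a median of -0.13. Arrays did not overlap for 30 members, which held for 71.3% of all genes.

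Nupr1, the stress-induced chromatin protein, was at 10.67, 9.68 and 10.41 in M1 cells, against 7.19, 6.71 and 6.55 in M0 cells, a 10.8-fold rise (3.44, SE 0.20, adjusted p = 1.9e-09). Psat1, the aminotransferase of serine synthesis, was at 10.45, 9.48 and 10.28 in M1 cells, against 6.13, 7.04 and 6.90 in M0 cells, a 10.4-fold rise (3.38, SE 0.25, adjusted p = 2e-08). M1 replicate 2 was the lowest M1 array in both genes and still far above M0. Trib3 was at 7.31, 7.62 and 7.55 in M1 cells, against 6.03, 6.08 and 6.03 in M0 cells (1.45, SE 0.16, adjusted p = 1.9e-06). Atf3 (1.26, SE 0.13), Atf4 (1.05, SE 0.11) and Ddit3 (1.15, SE 0.09) also rose, by more than 2-fold. A second probe set of Ddit3 was called the other way (-0.91, adjusted p = 5.7e-07), and the mean of both was not called (0.12, adjusted p = 0.14).

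Not every regulator followed. Atf5 fell by 0.96 (SE 0.12, adjusted p = 7.5e-06) and Cebpg, which pairs with ATF4 on DNA, by 1.26 (SE 0.08, adjusted p = 6.5e-09). All 5 feedback genes and other targets were higher: Ppp1r15a (1.20, SE 0.10), Vldlr (0.90, SE 0.10), Eif4ebp1 (0.59, SE 0.08), Chac1 (0.36, SE 0.14) and Stc2 (0.25, SE 0.10). Vldlr was not above the 40th percentile on any of the 3 M0 arrays, so its difference is not an exact size. The calls of Chac1 and Stc2 each ended without M1 replicate 1, M0 replicate 1 or M0 replicate 2, that of Chac1 also without M1 replicate 3 and that of Stc2 without M1 replicate 2 (adjusted p 0.05 to 0.14).

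The enzymes split as well. Mthfd2 (1.29, SE 0.14) and Phgdh (0.65, SE 0.10), the first enzyme of serine synthesis, were higher with Psat1, while Psph, the last enzyme of that pathway, fell by 0.53 (SE 0.10). The probe sets of Phgdh disagreed: 2 rose (0.65 and 0.53) and 2 fell (-0.46 and -1.06), and their mean was not called (-0.09, adjusted p = 0.41). Shmt2, which carries serine carbon into the mitochondrial folate pool, was not called on its brightest probe set (-0.26, SE 0.13), while the next one read -1.82. Aldh18a1 was at 4.30, 4.16 and 4.25 in M1 cells, against 5.54, 5.81 and 5.65 in M0 cells (-1.43, SE 0.10, adjusted p = 6.9e-09). The M1 values were at or below the percentile on all 3 arrays, and the gene's other probe sets read -0.42 to 0.21. Asns, which rose with both agents, was at 6.66, 5.92 and 6.73 in M1 cells, against 6.29, 6.79 and 6.46 in M0 cells, and the groups overlapped (-0.08, SE 0.21, adjusted p = 0.75).

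Of the transporters, Slc7a11 rose by 1.16 (SE 0.22) and Slc3a2 by 0.23 (SE 0.06). Slc38a2 fell by 1.42 (SE 0.10, adjusted p = 1.6e-08) on its brightest probe set, whereas the second was not called (-0.15) and the dim one rose (0.30). Slc7a5 read the same in both groups (-0.00, SE 0.10).

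The synthetases went both ways. Iars was at 6.93, 7.27 and 6.97 in M1 cells, against 8.64, 8.80 and 8.77 in M0 cells, a fall by 1.68 (SE 0.09, adjusted p = 9e-10). Wars is the tRNA synthetase for tryptophan and a known interferon-gamma gene. It was at 8.63, 8.91 and 8.78 in M1 cells, against 7.06, 7.09 and 7.15 in M0 cells, a rise by 1.67 (SE 0.07, adjusted p = 6.8e-11). The separation between groups was many times the spread within them in both, and the other probe sets of each gene were called in the same direction. Aars (0.77, SE 0.09), Cars (0.65, SE 0.07) and Yars (0.23, SE 0.07) were also higher. Nars (-0.82, SE 0.13), Eprs (-0.59, SE 0.10), Lars (-0.47, SE 0.09), Mars (-0.43, SE 0.09) and Tars (-0.16, SE 0.07) were lower, and Gars (-0.11) and Sars (0.04) were not called. The call of Tars ended without M1 replicates 1, 2 or 3 or M0 replicates 1 or 2 (adjusted p 0.059 to 0.16).

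The scaling bears on these directions. With each array centred on the median of the genes tested, a setting chosen after seeing the data, the median of all genes in M1 against M0 became 0.321, and the members called were 23 higher and 7 lower. Under it Tars (0.17), Gars (0.21) and Slc7a5 (0.32) were called higher, and Psph, Mars and Lars were no longer called. Here and in the comparisons below, counts under this or another alternative setting are printed without the share of all genes called under it. They therefore do not show a change particular to the members. T and NK cell markers were higher in M1 cells too, 4 of 4 tested, with array means of 4.81 to 4.91 in M1 and 4.41 to 4.52 in M0, as were 3 of 6 dendritic cell markers (5.28 to 5.63 in M1, 4.49 to 4.74 in M0). Of 7 neutrophil markers 4 were higher and 1 lower (5.33 to 5.46 in M1, 5.08 to 5.31 in M0). Of 3 B cell markers tested 2 were higher (4.59 to 4.71 in M1, 4.41 to 4.53 in M0), and of 5 stromal markers tested 1 was. Beside these counts, 33.6% of all genes tested were higher and 39.1% lower in M1 against M0. Array means cover every gene of a list with a probe set, tested or not. Those of the T and NK and B cell lists lay near the 40th percentile (4.34 to 4.52). The part of these markers in the result was not tested.

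**Figure D3:**
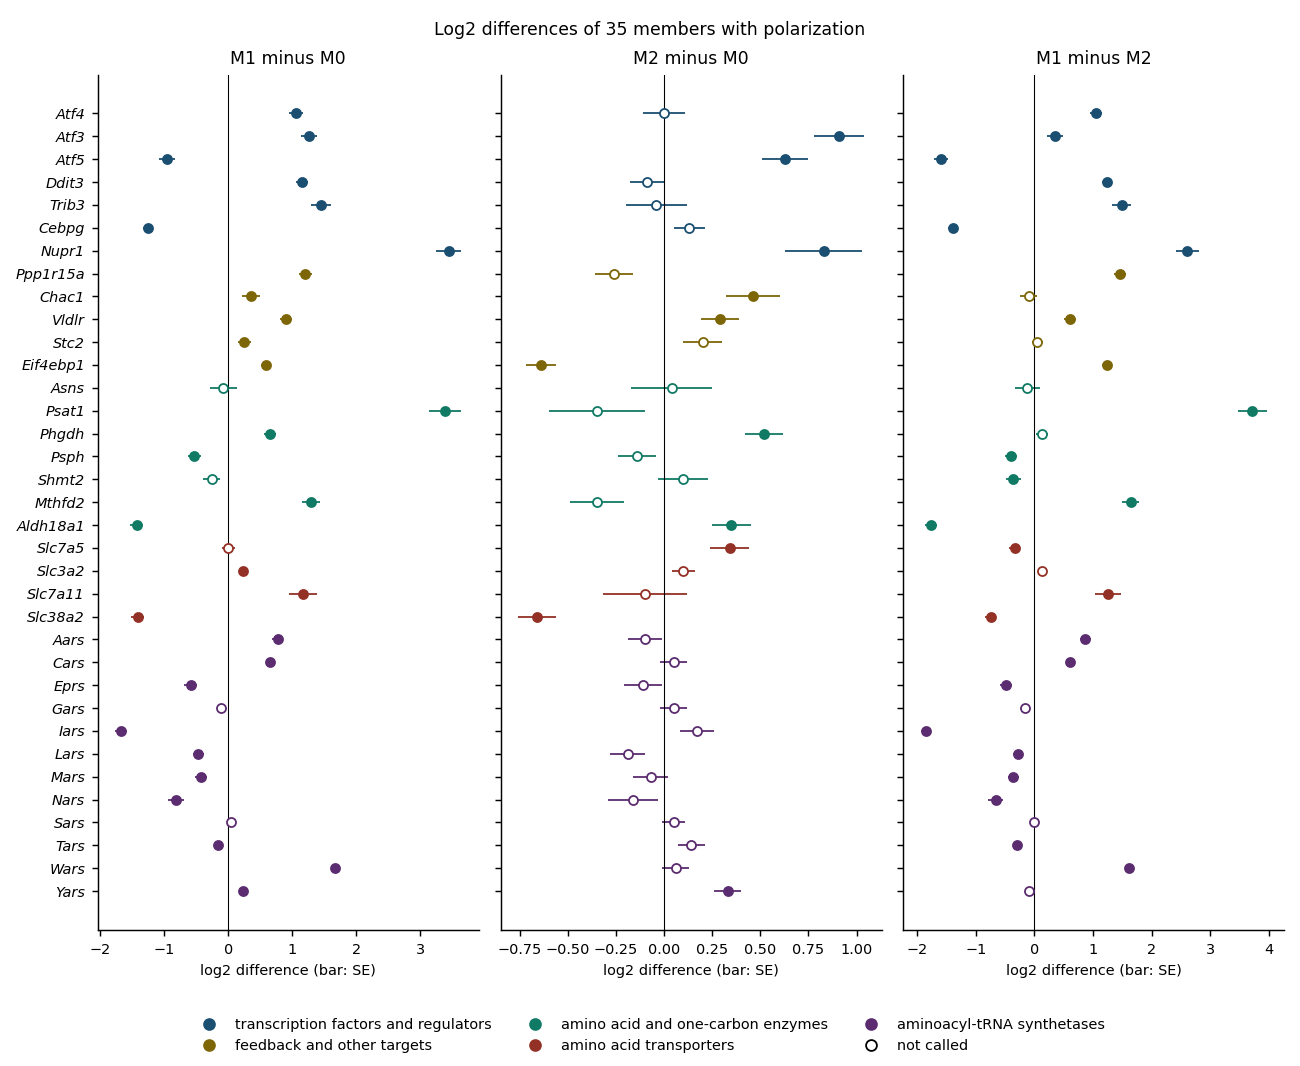
Log2 difference (horizontal axis, a scale for each panel; bars give the SE) of the 35 members, in the panels M1 minus M0, M2 minus M0 and M1 minus M2; filled points are called and open points are not. In M1 cells Nupr1 (3.44) and Psat1 (3.38) lie far right and Iars (-1.68) far left, and in M2 minus M0 all points lie between -0.66 and 0.91.

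M2 cells were compared with M0 cells for what IL-4 with IL-13 changed. Of the 35 members 9 were called higher, against 12.7% of all genes, and 2 lower, against 18.4% (31% of all genes either way). The median was 0.05, and the differences lay between -0.66 and 0.91. With arrays centred on the median of the genes tested, 14 members were higher and the median of all genes was 0.081, and with arrays centred on the median of all probe sets, or with the 6 arrays alone, 4 were lower. Arrays did not overlap for 18 members, against 47.2% of all genes. Atf3 was at 12.15, 12.10 and 12.32 in M2 cells, against 11.43, 11.14 and 11.28 in M0 cells (0.91, SE 0.13, adjusted p = 8.5e-05). Nupr1 was at 7.77, 7.55 and 7.61 in M2 cells, against 7.19, 6.71 and 6.55 in M0 cells (0.83, SE 0.20, adjusted p = 0.0066). Atf5 was at 8.47, 8.66 and 8.86 in M2 cells, against 8.09, 7.98 and 8.01 in M0 cells (0.63, SE 0.12, adjusted p = 0.0014). These regulators rose without Atf4, which was at 10.22 ± 0.07 in M2 cells and 10.23 ± 0.05 in M0 cells (SD, n = 3 each) on its brightest probe set. A second bright probe set of Atf4 was lower in M2 cells (-0.50, adjusted p = 0.0018).

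Phgdh was at 7.44, 7.36 and 7.51 in M2 cells, against 6.85, 6.81 and 7.08 in M0 cells (0.52, SE 0.10, adjusted p = 0.0015), and here all 4 of its probe sets were higher. The members that fell were Slc38a2 and Eif4ebp1. Slc38a2 was at 9.27, 9.49 and 9.14 in M2 cells, against 10.05, 10.03 and 9.82 in M0 cells (-0.66, SE 0.10, adjusted p = 0.0002). Eif4ebp1 was at 8.87, 8.91 and 9.04 in M2 cells, against 9.69, 9.49 and 9.57 in M0 cells (-0.64, SE 0.08, adjusted p = 1.9e-05). Neither gene's groups overlapped, and both were higher again when an agent was given to M2 cells. Smaller rises were those of Chac1 (0.46, SE 0.14), Aldh18a1 (0.35, SE 0.10), Slc7a5 (0.34, SE 0.10), Vldlr (0.29, SE 0.10) and, alone among the 12 listed synthetases, Yars (0.33, SE 0.07). Outside the list, 3 of 10 other cytosolic synthetases and partners were higher, led by Rars (0.79, SE 0.08), and 1 was lower. In mitochondria 2 of 15 were higher and 2 lower. The shares of all genes were 12.7% higher and 18.4% lower. Leaving out 1 array ended the call of Vldlr for M0 replicates 1 and 2 and M2 replicates 1, 2 and 3 (adjusted p 0.067 to 0.15), of Chac1 for M0 replicates 1 and 2 and M2 replicates 1 and 3 (0.056 to 0.12), of Slc7a5 for M0 replicate 3 and M2 replicates 2 and 3 (0.052 to 0.069), and of Aldh18a1 for M0 replicate 1 (0.061). Aldh18a1 was also not called on probe sets specific by suffix (0.31, adjusted p = 0.11). With the replicate block Ppp1r15a was called lower (-0.26, adjusted p = 0.048).

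M1 cells were also compared with M2 cells, which shares its arrays with the comparisons above. Of the 35 members 14 were called higher in M1 cells, against 28.1% of all genes, and 13 lower, against 36.5% (64.7% of all genes either way), with a median of -0.00. The arrays of 30 members did not overlap, against 64.9% of all genes. Psat1 was at 10.45, 9.48 and 10.28 in M1 cells, against 6.16, 6.46 and 6.41 in M2 cells (3.72, SE 0.25, adjusted p = 6.7e-09). Nupr1 was at 10.67, 9.68 and 10.41 in M1 cells, against 7.77, 7.55 and 7.61 in M2 cells (2.61, SE 0.20, adjusted p = 3.7e-08). Mthfd2 was at 8.85, 8.36 and 8.80 in M1 cells, against 7.08, 6.95 and 7.08 in M2 cells (1.64, SE 0.14, adjusted p = 7.9e-08). These members of the serine and folate routes and the chromatin protein were higher in every M1 array.

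Iars was at 6.93, 7.27 and 6.97 in M1 cells, against 8.90, 8.99 and 8.82 in M2 cells (-1.85, SE 0.09, adjusted p = 3.1e-10). Aldh18a1 was at 4.30, 4.16 and 4.25 in M1 cells, against 6.0, 6.06 and 5.97 in M2 cells (-1.77, SE 0.10, adjusted p = 6.3e-10). Wars was at 8.63, 8.91 and 8.78 in M1 cells, against 7.19, 7.13 and 7.15 in M2 cells (1.61, SE 0.07, adjusted p = 9.5e-11). None of these 3 overlapped, and Iars and Aldh18a1 were the lower ones in M1 cells. Atf5 (-1.59, SE 0.12) and Cebpg (-1.39, SE 0.08) were lower in M1 than in M2 cells, and Ppp1r15a (1.46, SE 0.10) and Eif4ebp1 (1.24, SE 0.08) were higher. With arrays centred on the median of the genes tested the counts became 18 higher and 7 lower, with a median of 0.237 over all genes.

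Over the 5 groups, the mean level of Atf4 was 11.28 ± 0.30 in M1, 11.01 ± 0.02 with nutlin-3a, 10.58 ± 0.02 with 10058F4, 10.22 ± 0.07 in M2 and 10.23 ± 0.05 in M0 (SD, n = 3 each). These levels are those of its brightest probe set, on which the M2 and M0 means did not differ beyond their spread. As given above, a second bright probe set was lower in M2 than in M0 cells. On the brightest probe set, M1 cells and M2 cells with nutlin-3a stood above the rest in Atf4. Of the 19 members higher with nutlin-3a against M2, 9 were higher in M1 against M0. A further 7 were lower there (Atf5, Aldh18a1, Slc38a2, Eprs, Iars, Mars and Tars), and 3 were not called (Asns, Gars and Sars). Of all genes tested, 33.6% were higher and 39.1% lower in M1 against M0, and the split of the 19 is not far from those shares. Asns averaged 6.44 ± 0.45 in M1, 7.84 ± 0.24 with nutlin-3a, 7.62 ± 0.30 with 10058F4, 6.56 ± 0.11 in M2 and 6.51 ± 0.26 in M0. Its levels in M1, M2 and M0 overlapped. Psat1 averaged 10.07 ± 0.52 in M1, 6.39 ± 0.26 with nutlin-3a, 6.72 ± 0.12 with 10058F4, 6.34 ± 0.16 in M2 and 6.69 ± 0.49 in M0, so that M1 alone stood apart.

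The listed synthetases were set beside the other cytosolic synthetases with their scaffold partners and beside the mitochondrial synthetases. With nutlin-3a, where 9.56% of all genes were called higher, 8 of 12 listed synthetases were higher (median 0.32), against 2 of 10 others in the cytosol (median 0.05) and 1 of 15 in mitochondria (median 0.00, 1 lower). With 10058F4 (10.6% of all genes) the counts were 3 of 12, 2 of 10 and 1 of 15, with medians of 0.17, 0.03 and -0.02. The cytosolic ones outside the list that rose with both agents were Qars and Aimp1. With nutlin-3a, Qars, the tRNA synthetase for glutamine, rose by 0.37 (SE 0.09) and the scaffold protein Aimp1 by 0.41 (SE 0.08). In M1 cells against M0 the neighbours were mostly lower: 6 of 10 in the cytosol fell and 3 rose (median -0.37), among them the phenylalanine subunit Farsb (-1.30, SE 0.10) and Qars (-1.13, SE 0.09), and 9 of 15 in mitochondria fell and 1 rose (median -0.60), led by Nars2 (-1.42, SE 0.15). Of all genes tested 39.1% fell and 33.6% rose in this comparison, and centring on the genes tested moved the median of all genes to 0.321.

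**Figure D4:**
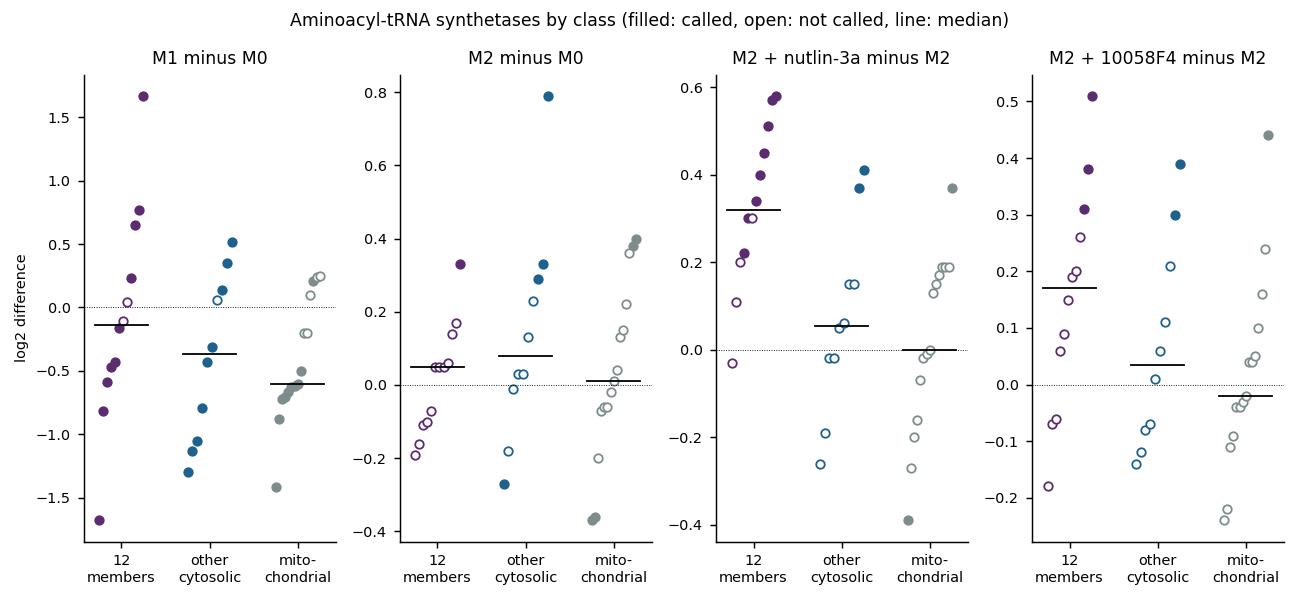
Log2 difference of each synthetase (1 point a gene) in M1 minus M0, M2 minus M0, M2 with nutlin-3a minus M2 and M2 with 10058F4 minus M2, on a scale for each panel, for the 12 listed synthetases, the 10 others of the cytosol and the 15 of mitochondria, with a line at each median. With nutlin-3a the medians are 0.32, 0.05 and 0.00, and in M1 minus M0 they are -0.13, -0.37 and -0.60.

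Other genes of the pathway, from lists written beside the members, were counted by the same test. Of 26 further ATF4 targets and partners tested, 11 were higher and 2 lower with nutlin-3a and 10 and 2 with 10058F4. Of all genes tested, 9.56% were higher and 5.85% lower with nutlin-3a, and 10.6% and 10.2% with 10058F4. The mTORC1 inhibitor Ddit4 rose by 2.52 (SE 0.15) with nutlin-3a and by 2.75 (SE 0.15) with 10058F4, and the ATF4-binding repressor Jdp2 by 1.66 (SE 0.11) and 2.67 (SE 0.11). Gadd45a, a stress gene of DNA damage, rose by 1.72 (SE 0.15) with nutlin-3a and by 1.13 (SE 0.15) with 10058F4. Sesn2, which restrains mTORC1, and the death gene Bbc3 were higher with nutlin-3a than with 10058F4 (1.07, SE 0.09 and 1.13, SE 0.11), whereas Jdp2 was lower (-1.02, SE 0.11). Ddit4, Gadd45a, Sesn2 and Bbc3 are also known p53 targets. In M1 cells against M0, 11 of 26 rose and 11 fell (42.3% each), near the 33.6% and 39.1% of all genes, with Jdp2 at 3.51 (SE 0.11), the oxidase of disulfide formation Ero1l at 2.43 (SE 0.18), Gadd45a at -3.30 (SE 0.15) and the death gene Bcl2l11 at -2.53 (SE 0.09). In M2 against M0, 5 rose and 7 fell (12.7% and 18.4% of all genes did), with the repressor Nfil3 at 2.99 (SE 0.11).

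Upstream, among 19 eIF2 kinases, subunits and regulators, 5 were higher (26.3%) and 1 lower (5.26%) with nutlin-3a, against 9.56% and 5.85% of all genes. With 10058F4, 6 were higher (31.6%) and 1 lower (5.26%), against 10.6% and 10.2%. Impact, an inhibitor of the amino acid sensing kinase GCN2, rose by 0.83 (SE 0.10) with nutlin-3a and by 0.80 (SE 0.10) with 10058F4. Eif2ak3, the kinase PERK of the endoplasmic reticulum, rose by 0.38 (SE 0.09) and 0.46 (SE 0.09), and Eif2ak2, the RNA-sensing kinase PKR, fell by 0.39 (SE 0.10) and 0.55 (SE 0.10). The GCN2 gene Eif2ak4 rose by 0.40 (SE 0.09) with nutlin-3a and by 0.31 (SE 0.09) with 10058F4, and the phosphatase subunit Ppp1r15b by 0.36 (SE 0.05) and 0.48 (SE 0.05). In M1 against M0, 2 of 19 rose and 13 fell (median -0.39), against 33.6% and 39.1% of all genes: PKR rose by 1.15 (SE 0.10) and Ppp1r15b by 1.34 (SE 0.05), and PERK fell by 1.72 (SE 0.09). Of 17 further amino acid transporters, 3 rose with nutlin-3a (17.6%), against 9.56% of all genes. With 10058F4, 4 rose (23.5%) and 1 fell (5.88%), against 10.6% and 10.2% of all genes. The arginine carrier Slc7a1 rose by 0.72 (SE 0.19) with nutlin-3a, and its difference of 0.51 (SE 0.19) with 10058F4 was not called. The arginine carrier Slc7a2 was higher in M1 (4.53, SE 0.16) and in M2 (3.83, SE 0.16) than in M0 cells. In M1 against M0, 6 of the 17 rose and 8 fell (35.3% and 47.1%), near the shares of all genes, and in M2 against M0, 5 rose and 5 fell (29.4% each), against 12.7% and 18.4% of all genes.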

How the data were processed

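The authors deposited log2 expression values for 45101 probe sets on 15 arrays, which per the submitters' processing notes came from RMA. Its version was not given in the sources, and the log base was read from the values. RMA gives all arrays one distribution of intensities, so it would conceal a change shared by most genes. Of the probe sets, 64 were controls, 34945 named 1 gene, 932 several and 9160 none. RefSeq's table for GRCm38.p6 held the gene ID of 34741, and lists Mars as Mars1.

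Genes above the 40th percentile of an array (4.34 to 4.52) on at least 3 arrays were tested: 13703 of 18193. Each comparison was a contrast of limma (lmFit and eBayes) with a mean for each of 5 groups (10 residual degrees of freedom, 3.86 prior) and Benjamini-Hochberg adjustment. Groups came from the sample titles. The members and lists were chosen with earlier results of these data known. In each comparison the 6 called members with the largest difference are given on every array, and up to 4 called genes of each further list. Of the members, 23 have several probe sets. Deviations of same-numbered arrays correlated at 0.055 to 0.263 for M1 with M0 and 0.0635 to 0.148 for M1 with M2. For the other comparisons they correlated at 0.232 to 0.424, all over 0.1. There the numbers were taken to pair the arrays, and a fit with replicate number as a block is reported where a call changed. The fit was tested on simulated data. Alternatives were other filters, probe set rules and normalizations, array weights, other variance models, the replicate block, only the 6 arrays compared, and each array left out. R 4.3.3, limma 3.58.1, Python 3.11.15, pandas 2.3.3 and matplotlib 3.10.9 were used.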

Additional observations from a re-analysis of the deposited data

How the results depend on the processing

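Over 3750 repeats of single members under alternative settings, 3486 stayed on their side of the threshold with no called value turning sign, 161 lost the call, 93 gained one, and 10 had the opposite sign where the reported value, the alternative or both were called. Among the 3486, 59 that were called in neither also had the opposite sign. The 10 were those of Phgdh on the mean of its probe sets (-0.09 in M1 against M0, -0.64 in M1 against M2, 0.38 with nutlin-3a against M2, 0.34 with nutlin-3a against 10058F4), of Tars in M1 against M0 with quantile normalization repeated (0.04) and with arrays centred on the median of the genes tested (0.17), of Slc7a5 (0.32) and Gars (0.21) in M1 against M0 and Sars (0.24) in M1 against M2 with that same centring, and of Aldh18a1 with nutlin-3a on probe sets specific by suffix (-0.08). The cause was not tested. The counts below are printed without the share of all genes called under each setting. They show only how far the member counts moved. Centring on the genes tested was chosen after seeing the data and gave 7 lower members for M1 against M0 and for M1 against M2, 14 higher for M2 against M0, 2 lower with 10058F4 and 5 higher with nutlin-3a against 10058F4. For M2 against M0, 4 members were lower with arrays centred on the median of all probe sets and with the 6 arrays alone. With nutlin-3a against M2, 0 were lower with no filter and with arrays centred on the median of all probe sets. With 10058F4 against M2, 2 were lower under the stricter filter, the mean of probe sets, repeated quantile normalization, trended eBayes and the replicate block, and 3 with array weights and the 6 arrays alone. With nutlin-3a against 10058F4, higher members were 5 with no filter or repeated quantile normalization and 19 with array weights, and lower ones 0 with no filter or the 6 arrays alone. Leaving out 1 array gave 17 to 19 higher and 10 to 11 lower for M1 against M0, 6 to 8 and 2 for M2 against M0, 13 to 15 and 12 to 14 for M1 against M2, 17 to 19 and 0 to 1 for nutlin-3a against M2, 9 to 12 and 1 for 10058F4 against M2, and 1 to 6 and 0 to 1 for nutlin-3a against 10058F4. The replicate block gave 19 higher and 11 lower for M1 against M0, 14 and 14 for M1 against M2, where numbers do not pair the arrays and Gars was called lower (-0.16), 20 and 1 for nutlin-3a against M2, and 10 and 1 for nutlin-3a against 10058F4. With 3 arrays a group, small differences such as those of Sars and Tars are near the limit of what was called, and values under the percentile, as for Aldh18a1 in M1 and Vldlr in M0, are not shown to be above background.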
